A study of Mus musculus with 2 samples.

Results

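*Rhox5*, *Rhox6* and *Rhox9* are reproductive homeobox genes of the X chromosome, and their transcripts were compared between WT and G9a-KO embryonic stem cells (ESCs). The genes were chosen by name as Rhox genes known from ESCs and the placenta. Every probe set (a group of short probes for 1 transcript) that the platform annotation assigns to one of them was taken. Each of the 3 genes had 1 probe set, so the 3 genes stand here for 3 of the 18194 genes with a single-gene probe set. No probe set was shared between Rhox genes. The probe sets were 1423429_at for *Rhox5* (gene ID 18617), 1419018_at for *Rhox6* (gene ID 19202) and 1449540_at for *Rhox9* (gene ID 104384).

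Affymetrix mouse expression arrays were used, 1 for WT ESCs and 1 for G9a-KO ESCs. Both cultures came from the TT2 line, which was derived from an F1 embryo of a C57BL/6 female and a CBA male. The design text describes G9a-KO cells with a mutant G9a allele and a second allele flanked by loxP sites, from which Cre removes exons 26 and 27, which encode the core of the catalytic SET domain. Both samples carry the same treatment text, 800 nM 4-hydroxytamoxifen for 48 h and another 48 h without it, whereas the methods of the study describe G9a-/- ESCs kept on embryonic fibroblasts. How the allele was lost in the cells measured, and whether the WT cells received the drug or fibroblasts, is therefore not settled. With 1 array per group no difference below has a replicate check, and no p-value was computed.

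Rhox genes encode homeodomain transcription factors of the paired-like class and lie together in 1 cluster on the X chromosome. They are expressed mainly in testis, ovary, placenta and extraembryonic tissues, and most are kept silent in somatic cells, where DNA methylation of their promoters takes part. *Rhox5*, first named Pem, is the founding member and is also known from ESCs, from extraembryonic endoderm and, under control of androgen, from Sertoli cells. *Rhox6* (Psx1) and *Rhox9* (Psx2, also Gpbox) are close paralogues that were found in placenta and in germ cells. G9a (gene *Ehmt2*) and its partner GLP (*Ehmt1*) place methyl groups on lysine 9 of histone H3.

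Promoter sequence of *Rhox5* is shown because the factors known to drive this gene include ETS proteins, and that of *Rhox13* because it was the only other Rhox gene measured. *Rhox6* and *Rhox9* had no promoter window in the reference used, so the 28 Rhox promoters counted below do not include them. Both sequences hold the 250 bases before the start of the gene, from RefSeq on GRCm38.p6, 5′ to 3′ on the strand of the gene. *Rhox5* lies on the plus strand at chrX:37754358-37754607 and *Rhox13* on the plus strand at chrX:38120590-38120839. Capitals mark a motif match.
Rhox5: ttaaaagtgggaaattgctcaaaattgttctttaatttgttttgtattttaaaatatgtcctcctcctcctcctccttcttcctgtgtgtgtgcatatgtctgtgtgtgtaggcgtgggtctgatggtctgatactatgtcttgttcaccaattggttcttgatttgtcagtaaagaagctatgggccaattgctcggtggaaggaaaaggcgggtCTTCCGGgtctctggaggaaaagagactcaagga
Rhox13: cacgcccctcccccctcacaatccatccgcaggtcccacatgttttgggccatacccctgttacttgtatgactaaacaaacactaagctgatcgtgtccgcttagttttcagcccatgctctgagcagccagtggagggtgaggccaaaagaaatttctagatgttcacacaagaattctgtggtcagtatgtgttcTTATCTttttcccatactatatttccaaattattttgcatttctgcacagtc
The capitals in *Rhox5* mark 1 match to the ETS motif CCGGAAG, read on the opposite strand and 34 to 28 bases before the start. Those in *Rhox13* mark 1 match to the GATA motif AGATAA, also on the opposite strand, 52 to 47 bases before the start. On either strand, the ETS motif was held by 6.91% and the GATA motif by 9.99% of the 32851 promoter windows of this length. Of the 28 Rhox promoters in that table, 8 held the ETS motif and 1 the GATA motif. The cluster holds copies of *Rhox2*, *Rhox3* and *Rhox4*, and the windows were not checked for shared sequence. The 28 may therefore not be independent, and their counts are not read as enrichment. The E-box CACGTG, which MAX and MGA bind, was in 5 of the 28 Rhox promoters and in 6.02% of all promoters, but its letters were not in the windows of *Rhox5* and *Rhox13*. The E2F motif GGCGGGA was in 1 of the 28 and in 9.75% of all, and likewise not in the windows of *Rhox5* and *Rhox13*. No match overlapped another in either window. Both windows held 4 CG dinucleotides, the sites of DNA methylation, against a median of 6 (quartiles 2 and 16) over all promoters.

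All 3 genes were higher in G9a-KO, and none by as much as 2-fold, while 53.4% of all genes were higher by any amount. *Rhox5* was 1.80-fold higher, *Rhox9* 1.51-fold and *Rhox6* 1.28-fold, so that *Rhox5* and *Rhox9* passed the 1.3-fold threshold that the study used for this pair and *Rhox6* did not. Over all genes, 24.6% were over 1.3-fold higher by at least 1 probe set, and 15.9% of the 9182 genes with 1 probe set, which is the fitting comparison for genes measured once. Lower genes made up 22% of all genes and 14.6% of those 9182, and none of the 3 Rhox genes was lower. At 2-fold the count was 0 of 3, against 6.23% of all genes and 4.52% of the 9182. With 3 genes, 2 of 3 past the threshold is a description of these arrays and not a rate.

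*Rhox5* was among the most abundant signals of both arrays. Levels are given as log2 relative to the 75th percentile of all probe sets of the array, on which the array medians lay at -2.24 (WT) and -2.13 (G9a-KO). The level of *Rhox5* was 5.14 in WT and 5.99 in G9a-KO. Of the 45101 probe sets, 421 were brighter than that of *Rhox5* in WT and 192 in G9a-KO. The gene was thus on in WT ESCs before any change, and its difference of 0.85 (log2) was added to a level near the top of the scale, where the brightest probe set lay at 6.93 in WT and 7.03 in G9a-KO. Differences are small for most genes this bright. Among the 137 other genes whose mean level lay within 0.5 of that of *Rhox5*, a window chosen after the data were seen, the robust SD of the differences was 0.25 and 2 genes had a higher difference. They were *Ctsl* (1.39), which encodes the protease cathepsin L, and *Fabp3* (1.08), which encodes a fatty acid-binding protein. In that window 8.03% of the genes were over 1.3-fold higher. In a wider group, the other 909 genes of the brightest of 20 equal bins of mean level, the robust SD was 0.30, 29 genes (3.19%) had a higher difference and 14.5% were over 1.3-fold higher. Over all 18194 genes, 6.04% had a higher difference.

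*Rhox6* and *Rhox9* had intermediate signals, on either side of the 75th percentile. The level of *Rhox6* was -0.072 in WT and 0.28 in G9a-KO, a difference of 0.35. That difference is 0.027 below the threshold, which is 0.38 on the log2 scale. The level of *Rhox9* was -0.34 in WT and 0.25 in G9a-KO, a difference of 0.59. Both genes lay at least 1.89 above the array median on both arrays. No measure of background was computed, so this places the signals on the array and no more. Genes of this brightness varied more than those as bright as *Rhox5*. Of the 2064 other genes within 0.5 of the mean level of *Rhox6*, 23.3% had a higher difference than *Rhox6*, and of the 2061 around *Rhox9*, 13.2% had a higher difference than *Rhox9*. The robust SD was 0.56 in both windows, so that the differences of *Rhox6* and *Rhox9* were of about that size or smaller, whereas that of *Rhox5* exceeded the spread at its level.

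**Figure D1:**
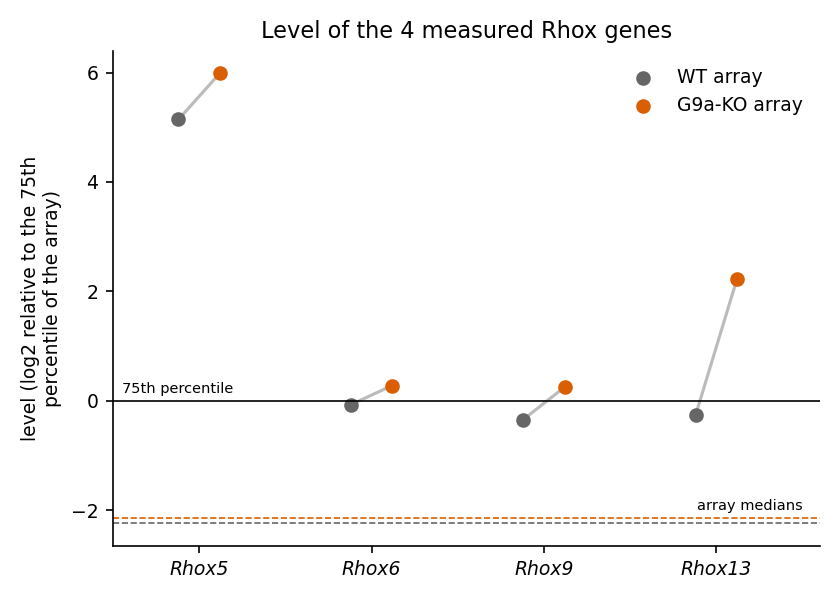
Each point is the level of a Rhox gene (vertical axis, log2 relative to the 75th percentile) in WT (grey) or G9a-KO (orange) ESCs, with 1 array each. Dashed lines mark the array medians. *Rhox5* runs from 5.14 to 5.99, *Rhox6* from -0.072 to 0.28, *Rhox9* from -0.34 to 0.25 and *Rhox13* from -0.26 to 2.23.

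The order of the differences was *Rhox5*, *Rhox9* and *Rhox6*, but neighbours in this order are not separated by a measured error. *Rhox9* and *Rhox6* differed from each other by 0.24 in their differences. At their brightness, the probe sets of 1 gene often disagreed by as much. Among the 1280 genes with several probe sets within 1 of the mean level of *Rhox6*, the median gap between the lowest and the highest difference of a gene was 0.28. Each Rhox gene had 1 probe set, so no such gap can be given for it. *Rhox6* and *Rhox9* also resemble each other in sequence, and how far their probe sets bind both transcripts was not tested.

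*Rhox13*, a germ cell-expressed gene at the other end of the cluster, was also higher and by more. Its probe set 1443844_at (gene ID 73614) lay at -0.26 in WT and 2.23 in G9a-KO, a difference of 2.49 (5.61-fold). Over all genes, 0.687% had a higher difference than *Rhox13*. These 4 were the measured ones among the 42 Rhox genes and pseudogenes of the RefSeq table, and the others, such as *Rhox8*, *Rhox10* and the copies of *Rhox2*, *Rhox3* and *Rhox4*, were not analysed here.

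**Figure D2:**
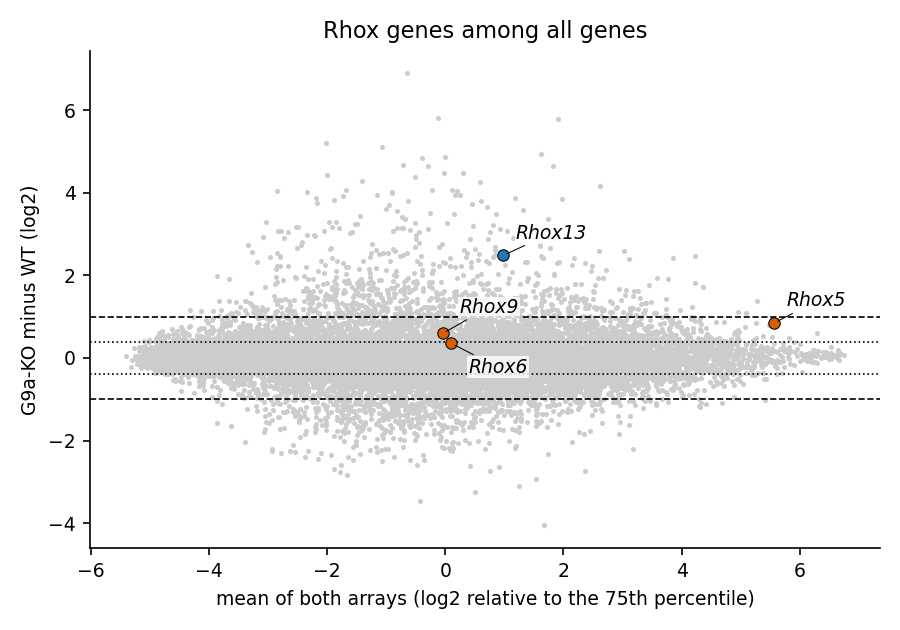
Each of the 18194 points is a gene, placed by its mean level (horizontal axis, log2 relative to the 75th percentile) and its G9a-KO minus WT difference (vertical axis, log2), with dotted lines at 1.3-fold and dashed lines at 2-fold. *Rhox5* (0.85) lies at the bright end, above the narrow band of genes of its level, whereas *Rhox6* (0.35) and *Rhox9* (0.59) lie inside the wider band at the centre and *Rhox13* (2.49) lies above it.

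The genes around the cluster did not share 1 direction. Of the 30 flanking genes, the nearest 15 measured protein-coding genes on each side, 5 were over 1.3-fold higher and 3 lower in G9a-KO, with a median difference of 0.13. The balance turned to 4 higher and 5 lower without a shift, with median centring and with quantile normalization. Among all 18194 genes, 17.4% were higher and 17.2% lower by the same rule, and among the 618 X-linked genes 24.6% were higher and 16.3% lower. *Gm9*, the measured gene next to the cluster on the side of *Rhox1*, was 4.41-fold higher, but from a WT level (-2.08) near the array median. *Dcaf12l1*, the 13th measured gene beyond the other end, was 4.79-fold higher (2.26) and *Lonrf3* was 1.81-fold higher. *Nkrf*, which encodes a repressor of NF-kappaB target genes, was 1.88-fold lower. *Zbtb33* (-0.088), which encodes the methyl-CpG-binding protein Kaiso, and *Tmem255a* (-0.17) lie between *Rhox13* and the last Rhox pseudogene and stayed within the threshold. Of the 30 flanking genes, 3 had a higher difference than *Rhox5*, the same number a higher one than *Rhox9*, and 8 a higher one than *Rhox6*. Among all X-linked genes, whose median difference was 0.099, *Rhox5* ranked 65th, *Rhox9* 97th and *Rhox6* 165th from the top.

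**Figure D3:**
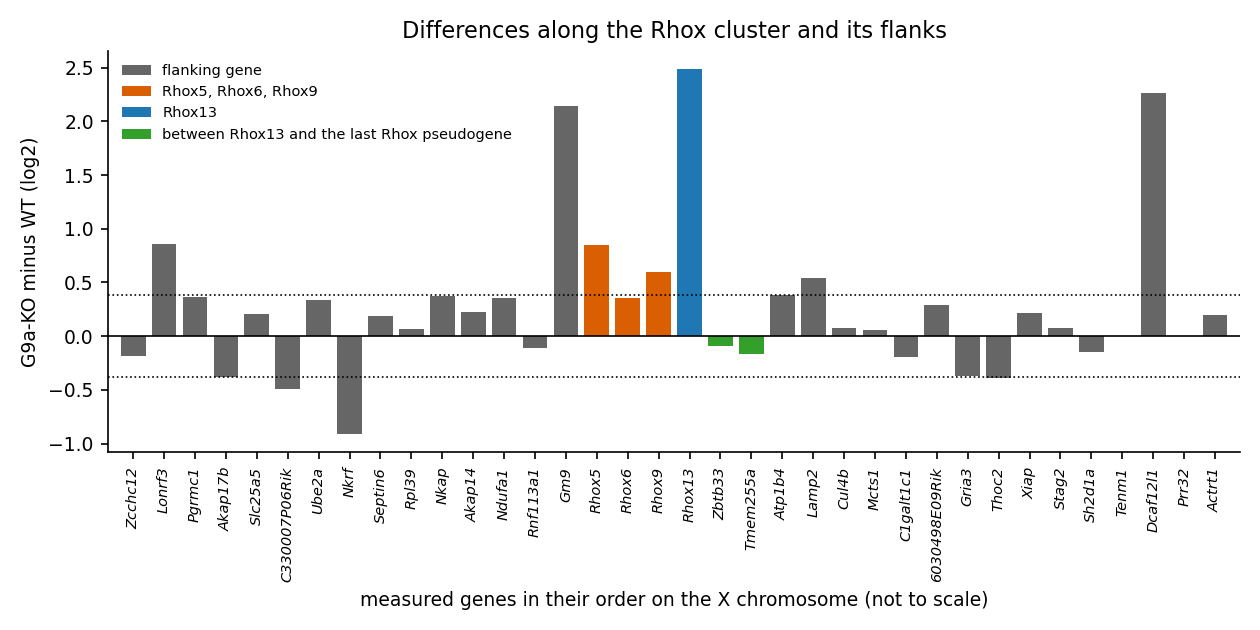
Bars give the G9a-KO minus WT difference (vertical axis, log2) of measured genes in their order along the X chromosome (horizontal axis, not to scale), with *Rhox5*, *Rhox6* and *Rhox9* in orange, *Rhox13* in blue, genes between *Rhox13* and the last Rhox pseudogene in green, flanking genes in grey and dotted lines at 1.3-fold. The 4 Rhox genes all point upwards, *Zbtb33* and *Tmem255a* lie slightly below 0, and most flanking genes stay between the dotted lines.

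Other homeobox genes of the same class were higher in about the same share as all genes. All lists are counted by the probe set with the highest mean per gene. By this rule the median of all genes was 0.036, and 17.4% of them were over 1.3-fold higher and 17.2% lower. Of 30 measured paired-like and related homeobox genes outside the cluster, 5 were over 1.3-fold higher and 2 lower, with a median of 0.027, and 14 of the 30 lay below the median on both arrays. The higher genes included *Crxos* (4.85, or 1.07 by its other probe set, and below the median in WT), *Hopx* (3.06), *Obox6* (2.78) and *Hesx1* (1.62), a regulator of forebrain and pituitary development. The difference of *Rhox5* was exceeded by 4 of the 30. The sign of this median turned with the scaling (-0.029 without a shift).

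Germ cell genes of the X chromosome outside the cluster were the next group. Of 20 measured genes, 10 were over 1.3-fold higher and 1, *Tex11* (-1.81), was lower, with a median of 0.36, beside the 24.6% higher and 16.3% lower among X-linked genes. The median was 0.94 with only probe sets above the array median on at least 1 array. That filter kept the Mage genes named below only through their G9a-KO levels. The rise of the median is therefore partly built in and adds no support. The median was 1.55, with 25 genes higher, when probe sets shared by several genes were counted for each, which adds genes to the list. A shared probe set is 1 measurement, so these genes were not all measured separately, and the size of the longer list is not given. At that setting the count over all genes, by at least 1 probe set, went from 4474 to 4814. Of the 20 genes, 7 lay below the median on both arrays. The Mage genes *Magea5* (6.90), *Magea6* (5.20), *Magea4* (3.30) and *Mageb3* (2.55) had the highest differences, all from WT levels between -4.62 and -3.50, below the array median. The Rhox members started from higher WT levels than the Mage genes just named. So did *Mageb16* (0.62) and *Fmr1nb* (0.39), whose WT levels lay above those of *Rhox6* and *Rhox9* and below that of *Rhox5*. A higher difference than *Rhox5* was seen in 7 of the 20 genes, a higher one than *Rhox9* in 9 and a higher one than *Rhox6* in 10. Germ cell markers went both ways, with 9 of 18 higher, 4 lower and a median of 0.47. Over all genes, 17.4% were higher and 17.2% lower. *Asz1* (4.47) and *Gtsf1* (3.86) of the piRNA pathway, *Dazl* (2.62) and *Sohlh2* (1.80) had the highest differences. The lower genes were *Stra8* (-1.14), which acts at the entry into meiosis, *Dppa3* (-0.87), *Mael* (-0.60) and *Dnd1* (-0.50).

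The targeted gene and the factors tied to silencing of germ cell genes were mostly lower or within the threshold. *Ehmt2* lay at 2.05 in WT and 0.51 in G9a-KO by its brighter probe set (2.90-fold lower), while its other probe set, close to the array median, differed by 0.20 in the opposite direction. Whether these probe sets lie inside or outside the deleted exons is not known from the files, so they do not check the label. Of 21 silencing factors, 10 were lower past 1.3-fold and 1 was higher (median -0.37). By the same rule 17.2% of all genes were lower and 17.4% higher. The lower count ranged from 7 to 14 over the alternatives in processing. Besides *Ehmt2*, the linker histone gene *H1f2* (-2.13, between -2.16 and -0.20 by other probe sets) was lower. So were *Zfp644* (-1.13, between -1.08 and -0.45 by other probe sets), whose product binds G9a and GLP, and *Mga* (-1.03, between -1.05 and -0.013 by other probe sets). *Mga* encodes the DNA-binding partner of MAX in PCGF6-PRC1. The exception in the other direction was the linker histone gene *H1f4* (0.69), whose WT level was below the array median. Among DNA methyltransferases, *Dnmt3a* was lower (-0.89, between -1.10 and -0.13 by other probe sets), as was *Dnmt3l* (-0.45), which encodes their cofactor without catalytic activity, whereas *Dnmt1* (-0.0093) and *Dnmt3b* (-0.23) stayed within the threshold.

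Of 7 measured factors known to act at *Rhox5* promoters, 2 were higher and 1 lower (median 0.22). Over all genes, 17.4% were higher and 17.2% lower. *Ets2*, an ETS factor, was higher (1.26), as was *Gabpb1* (1.15), a subunit of the ETS factor GABP, although its other probe set differed by -0.37. *Sp1* (0.35) and *Sp3* (0.22), zinc finger factors that bind GC-rich sites, stayed within the threshold, as did *Gabpa* (0.20), the ETS subunit of GABP. *Ets1* was lower (-0.55), but it lay below the array median on both arrays, and its other probe sets ranged from -0.19 to 0.12. The lower count of this list ranged from 0 to 1 over the alternatives in processing. *Unc5c*, a netrin receptor gene that RHOX5 represses in Sertoli cells, differed by 0.23, and *Ins2*, an insulin gene that RHOX5 activates there, by -0.069. Both targets stayed within 1.3-fold in these ESCs.

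*Rhox5* and its relatives are also genes of extraembryonic tissues, so markers of these tissues are given beside them. By the rule used for all lists, 17.4% of all genes were over 1.3-fold higher and 17.2% lower. Of 26 measured primitive endoderm markers, 21 were over 1.3-fold higher in G9a-KO and 0 lower, with a median of 2.56. Their median level ran from -1.84 in WT to 1.11 in G9a-KO, and their summed level (log2) from 4.75 to 7.45. *Cubn* (5.82), *Srgn* (5.79), *Col4a1* (4.95) and *Col4a2* (4.87) led, and *Cubn* and *Col4a2* lay below the array median in WT. The difference of *Rhox5* was exceeded by 20 of the 26 markers. Of 17 trophoblast markers, 11 were higher and 1, *Tfap2c* (-0.55), was lower, with a median of 0.64. Of the 17, 4 lay below the median on both arrays, among them the higher genes *Gata3* (1.00) and *Ctsq* (0.64). With only probe sets above the median, 9 were higher. *Krt19* (6.90-fold), *Plac1* (2.83-fold), *Elf5* (2.63-fold) and *Krt18* (2.25-fold) led, and *Plac1* and *Elf5* lay below the array median in WT. The other probe set of *Elf5* differed by 0.44 (log2). *Cdx2* (-0.082) stayed within the threshold and lay below the median on both arrays. The summed level of the trophoblast markers ran from 4.12 to 4.89. The part of endoderm or trophoblast cells in the higher *Rhox5*, *Rhox6* and *Rhox9* was not tested. In RNA from whole cultures, more cells of a type and more RNA per cell cannot be told apart.

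Markers of ESCs were present on both arrays. All 20 measured markers lay above the array median on both, with levels from 0.72 to 5.98 in WT and from 0.062 to 6.59 in G9a-KO. Of these, 9 were over 1.3-fold lower and 3 higher in G9a-KO, with a median of -0.31. Over all genes, 17.2% were lower and 17.4% higher by the same rule. *Nr0b1* (-2.02), *Lin28a* (-1.29) and *Klf2* (-1.14) were lower and *Tbx3* (1.17) was higher. Of the core pluripotency factors, *Pou5f1* was lower (-0.46), whereas *Sox2* (-0.15) and *Nanog* (0.21) stayed within the threshold, and the ESC marker *Zfp42* was lower (-0.79). Of 22 fibroblast markers, 7 were higher and 0 lower (median 0.15). *Col5a2* (3.06), *Fn1* (1.61), *Col6a3* (1.37) and *Mmp2* (0.84) had the highest differences among those above the array median on at least 1 array, with *Lum* (0.98) below it on both. By their other probe sets, *Col5a2* differed by 1.54, *Fn1* by 0.93 and *Mmp2* by 0.94. The remaining 15 markers stayed within the threshold, among them *Vim* (-0.047), which lay at 3.88 in WT and 3.84 in G9a-KO. Of the list, 11 of the 22 lay below the median on both arrays, and the summed level ran from 4.49 to 4.98. The part of fibroblast RNA in the Rhox values was not tested.

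**Figure D4:**
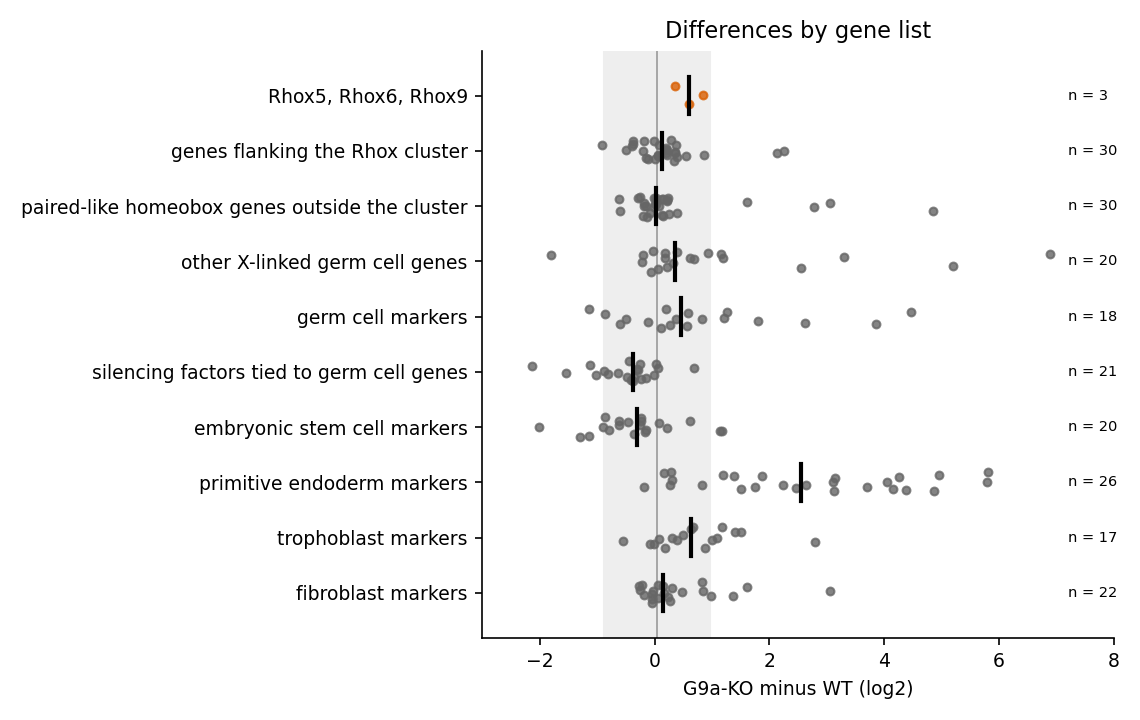
Difference between G9a-KO and WT (log2, horizontal axis) for the genes of each list, 1 point per gene with small vertical scatter for legibility, black bars at the list medians, and a grey band from the 5th to the 95th percentile of all 18194 genes (-0.89 to 0.96). The 3 Rhox genes lie inside the band on its upper side, around a median of 0.59, while most primitive endoderm markers lie beyond it.

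The genes whose 2 values lay nearest to those of each member were found by the Euclidean distance over the 2 arrays. They were *Eif4a2* (distance 0.13), *Pttg1* (0.25) and *Txn1* (0.35) for *Rhox5*, *Trim11* (0.022), *Alg8* (0.024) and *Tmem164* (0.033) for *Rhox6*, and *Tnfrsf1a* (0.028), *Hes1* (0.034) and *Agpat3* (0.042) for *Rhox9*. *Rhox6* and *Rhox9* lay 0.27 apart, and *Rhox6* was the 151st nearest gene to *Rhox9*. The closest gene to *Rhox5*, *Eif4a2*, a translation initiation factor, ran from 5.07 to 5.88. Over 2 arrays such nearness reflects similar brightness and a similar difference and no more.

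Technical measures of the arrays differed little. The differences of 18 spike-in control probe sets ran from -0.16 to 0.21 (SD 0.11). These controls carry the error of hybridization and not that of separate cultures. The 3′ minus 5′ signal (log2), which reflects RNA integrity, was -0.13 in WT and -0.12 in G9a-KO for *Gapdh*, and 0.53 and 0.56 for beta-actin.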

How the data were processed

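Total RNA (200 ng) of each culture was labelled with biotin and hybridized. The authors deposited log2 values. Per the labels these come from RMA (R 3.2.1), a procedure of background correction, quantile normalization and summary per probe set, so a difference in total RNA per cell cannot be seen. From these, the 75th percentile of each array was subtracted, as the methods of the study name, and the difference, G9a-KO minus WT, was computed for each probe set. This shift adds 0.056 to every difference. Calls follow the methods (at least 1 probe set past 1.3-fold). Lists use the probe set with the highest mean per gene. Of 45101 probe sets, 34958 had 1 gene symbol, 932 several and 9211 were unnamed here. By gene ID, 34754 matched the RefSeq table (GRCm38.p6), which also gave gene order. Robust SD is 1.4826 times the median absolute deviation.

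The members, lists and alternatives were chosen with earlier results of these data known. Named genes are all measured Rhox genes, *Ehmt2*, the 3 nearest genes per member and up to 4 per list with the largest absolute difference and above the median on at least 1 array. Lists with under 5 genes are named whole. *Ctsl*, *Fabp3*, *Tex11*, *Stra8*, *Dppa3*, *Mael*, *Dnd1*, *Dnmt1*, *Dnmt3a*, *Dnmt3b*, *Dnmt3l*, *H1f4*, *Ets1*, *Gabpa*, *Zbtb33*, *Tmem255a*, *Pou5f1*, *Sox2*, *Nanog*, *Zfp42* and *Lum* were added after their values were seen. So were *Tfap2c*, *Cdx2*, *Gata3*, *Ctsq*, *Vim*, *Mageb16* and *Fmr1nb*. A protein comparison of the Rhox members was planned and not run. The steps were tested on simulated differences. Python 3.11.15, pandas 2.3.3, numpy 2.4.6, statsmodels 0.14.6 and matplotlib 3.10.9 were used.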

Additional observations from a re-analysis of the deposited data

How the results depend on the processing

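The differences of *Rhox5*, *Rhox6* and *Rhox9* kept their direction and their side of the 1.3-fold threshold under all 9 alternatives. These were no shift, median centring, quantile normalization, lowess correction (span 0.3), the mean over probe sets, the probe set of largest absolute change, leaving out _s_at, _x_at and _a_at probe sets, keeping only probe sets above the median, and counting shared probe sets. The last 5 cannot move a gene with 1 unshared probe set. *Rhox5* ranged from 0.74 to 0.85, *Rhox9* from 0.49 to 0.61, *Rhox6* from 0.25 to 0.37 and *Rhox13* from 2.39 to 2.51. Raising the threshold to 2-fold took the members called from 2 to 0. Median centring lowers every difference by 0.10 and turned the count of all genes past 1.3-fold to 3328 higher against 5080 lower, from 4474 against 3998.

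The median of the paired-like homeobox genes turned to -0.029 without a shift, -0.075 with median centring, -0.045 with quantile normalization and -0.010 with lowess correction, and that of the *Rhox5* targets to -0.023 with median centring. For lists and levels, 28 other values moved and 330 stayed. With 10 flanking genes a side, 3 were higher and 3 lower, and with 30 a side, 12 were higher and 9 lower. No paired analysis was possible because each group holds 1 array. No protein identity between the members is given, and the number of arrays limits every value.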
